A study of Mus musculus with 12 samples.

Results

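Mitosis and kinetochore genes are described here in mouse bone marrow stem cells, sorted by flow cytometry into cells with (CD49+) and without (CD49-) surface CD49, a name that the integrin alpha subunits share. The 57 listed genes encode the cyclins, kinases, checkpoint proteins, kinetochore and chromosome proteins, motors and cytokinesis factors that carry a cell through division. They were chosen by name, and every probe set whose only annotated symbol was one of them was taken. Of the 57 genes, 56 had such a probe set, out of 18193 genes with 1 in the whole series, and Ccnb1 was not analysed here. The 56 genes had 130 probe sets, and each gene was represented by the probe set with the highest mean log2 signal on its chip design. The design was MOE430A for 52 genes and MOE430B for the other 4 (Cdca8, Cdca2, Fbxo5 and Espl1).

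The samples are grouped by the submission that their titles name (MZ1468 or MZ1484) and by CD49. The 4 MZ1468 samples were MZ1468-2 and MZ1468-4 (CD49+) and MZ1468-1 and MZ1468-3 (CD49-), and the 2 MZ1484 samples were MZ1484-2 (CD49+) and MZ1484-1 (CD49-), so that 3 CD49+ samples are set against 3 CD49- samples. Signals of the 4 MZ1468 samples, and of the 2 MZ1484 samples, are listed in this order throughout. Each sample was PCR-amplified cDNA from about 30 lysed cells, with an estimated purity of 97.03%, taken 0 h after the sort from a serum-containing salt solution, and each was hybridised to both chip designs. The labels name neither the alpha subunit stained nor the strain, genotype, age or sex of the mice, and they do not say whether samples came from separate animals or sorts. The p-values therefore measure only the spread between these samples, part of which may be technical.

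In the adult marrow, stem cells are known to be mostly out of cycle, while their immediate progeny divide often. Entry into mitosis is driven by Cdk1 bound to A- and B-type cyclins. The kinetochore, built on the centromeric histone Cenpa, then ties each chromosome to the spindle, the spindle assembly checkpoint delays anaphase until all chromosomes are attached, and the chromosomal passenger complex corrects wrong attachments. The anaphase-promoting complex, opened by Cdc20, ends mitosis by marking cyclin B and securin (Pttg1) for destruction. Transcripts of most of these genes are known to accumulate in G2 and M phase and to be low in resting cells, through promoters that often carry CCAAT boxes and a cell cycle genes homology region (CHR).

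The values were MAS5 signals on a linear scale. No detection calls came with them, and each array was given a background bound, the brightest signal of its Bacillus control probe sets, since mouse cells lack those transcripts. The bound was 78.0 to 100 on the MZ1468 arrays and 96.0 to 149 on the MZ1484 arrays of MOE430A. On MOE430B it was 850.0 to 1466 and 844 to 1203. Signals of different probe sets are not comparable with each other, so that genes are compared between samples and not with one another. A sum over the probe sets of a list is likewise set only against the same sum in other samples, and it follows the brightest of them. In amplified RNA of a mixed sample, fewer dividing cells and less of a transcript in each cell cannot be told apart.

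The submissions differed in more than these genes. They were scanned on different days on both designs and, on MOE430A, ran on different fluidics stations, so that submission, scan day and the cells themselves cannot be told apart. The Y-linked gene Eif2s3y had signals of 3349 to 7413 in the 4 MZ1468 samples, against 15.4 to 16.2 in the 2 MZ1484 samples, where both were under the bound. The labels do not give sex, and a sex difference between the submissions could not be told apart from their other differences. Stem cell identity was checked on 18 measured stem cell markers, of which 11 to 17 were above the bound in MZ1468 samples and 13 to 15 in MZ1484 samples. Hlf, Lmo2, Gata2, Meis1, Tal1 and Kit were above it in all 6 samples, and Mecom was under it in all 6. Slamf1 and Fgd5 were under it in every CD49+ sample, and Procr and Tek were under it in MZ1468-2. The summed MOE430A signal of these markers was 48403 to 51103 in MZ1468 samples and 75053 to 115284 in MZ1484 samples.

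The promoters of these genes are shown first, and whether their motifs go with the signals was not tested. RefSeq promoter windows (GRCm38.p6) were at hand for 48 of the 57 genes, in 51 windows. Each window was searched on both strands, 250 bases before the start and 30 after it, for the CHR (TTTGAA or TTCGAA) and for CCAAT. The CHR was present in 72.5% of the 51 windows, against 18.4% of the 32851 windows of all genes. CCAAT was present in 78.4% of the members' windows against 36.1% of all windows, and at least 2 copies of it in 52.9% of the members' windows against 11.1% of all windows. Both motifs stood together in 66.7% of the members' windows and in 6.92% of all windows. The next 6 genes were called higher in MZ1468, that is, past a limma adjusted p of 0.05, and had the smallest p among called members with a window. Their last 180 searched bases are given 5′ to 3′ in the direction of transcription, with each CHR and CCAAT in capitals. On the other strand a CCAAT reads ATTGG and a CHR reads TTCAAA or TTCGAA, and in Cdca8 a CHR and a reversed CCAAT share bases.

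Cdca8 (chr4:124936888-124937067, minus strand): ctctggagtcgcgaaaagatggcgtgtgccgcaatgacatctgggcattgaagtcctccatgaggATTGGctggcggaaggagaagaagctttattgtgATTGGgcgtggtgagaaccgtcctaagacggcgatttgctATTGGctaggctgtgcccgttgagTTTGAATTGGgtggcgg
Cdca5 (chr19:6084947-6085126, plus strand): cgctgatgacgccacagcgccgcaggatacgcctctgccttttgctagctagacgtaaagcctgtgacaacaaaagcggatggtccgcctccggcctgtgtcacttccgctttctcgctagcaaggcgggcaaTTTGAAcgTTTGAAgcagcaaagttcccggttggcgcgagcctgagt
Mki67 (chr7:135716350-135716529, minus strand): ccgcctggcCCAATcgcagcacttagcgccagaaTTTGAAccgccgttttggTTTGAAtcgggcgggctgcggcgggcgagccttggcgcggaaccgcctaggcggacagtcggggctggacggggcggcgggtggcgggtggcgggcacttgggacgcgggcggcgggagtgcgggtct
Ccnb2 (chr9:70421525-70421704, minus strand): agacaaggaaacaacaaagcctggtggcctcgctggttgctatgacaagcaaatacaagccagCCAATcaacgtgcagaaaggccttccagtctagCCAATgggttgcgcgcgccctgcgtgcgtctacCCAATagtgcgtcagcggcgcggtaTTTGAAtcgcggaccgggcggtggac
Top2a (chr11:99024160-99024339, minus strand): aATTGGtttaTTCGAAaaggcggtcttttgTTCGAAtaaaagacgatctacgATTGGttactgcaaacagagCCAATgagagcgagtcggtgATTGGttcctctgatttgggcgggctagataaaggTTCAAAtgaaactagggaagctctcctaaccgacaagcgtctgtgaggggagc
Birc5 (chr11:117849087-117849266, plus strand): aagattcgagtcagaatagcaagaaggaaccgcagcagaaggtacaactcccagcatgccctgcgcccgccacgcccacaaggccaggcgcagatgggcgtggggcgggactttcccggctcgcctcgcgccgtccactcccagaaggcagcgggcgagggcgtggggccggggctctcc

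The windows of Cdca5 and Mki67 each hold a pair of CHR copies close together, and Birc5, which encodes survivin, has neither motif in the bases searched. The next 3 genes had signals above the bound in both MZ1484 samples as well, and among such members with a window they had the largest p in the comparison of the submissions. They encode the activator of the anaphase-promoting complex, the centromeric histone and a checkpoint kinase-like protein.

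Cdc20 (chr4:118437314-118437493, minus strand): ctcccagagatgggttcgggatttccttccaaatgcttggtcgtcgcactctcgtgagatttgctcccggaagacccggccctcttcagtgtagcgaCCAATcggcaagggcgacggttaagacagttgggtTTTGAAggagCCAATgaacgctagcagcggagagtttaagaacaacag
Cenpa (chr5:30666736-30666915, plus strand): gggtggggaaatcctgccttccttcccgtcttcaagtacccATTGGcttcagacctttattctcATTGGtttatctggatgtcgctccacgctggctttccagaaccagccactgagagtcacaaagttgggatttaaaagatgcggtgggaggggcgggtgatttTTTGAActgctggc
Bub1b (chr2:118598061-118598240, plus strand): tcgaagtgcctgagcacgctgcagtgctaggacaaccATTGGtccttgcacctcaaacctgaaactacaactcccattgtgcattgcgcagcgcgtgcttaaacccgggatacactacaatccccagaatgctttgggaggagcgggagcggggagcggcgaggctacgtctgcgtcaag

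Cdc20 and Cenpa carry a CHR and a pair of CCAAT copies, the same motifs as Ccnb2, and Bub1b has a CCAAT in the bases shown and a CHR further upstream. Among members above the bound on both MZ1484 arrays, 9 of 11 windows held a CHR and 8 held a CCAAT, and among the members called higher in MZ1468 the numbers were 9 of 14 for each. Cdca5 belongs to both of these sets. These matches describe the letters in the window and are not evidence of a bound factor.

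The first comparison sets the 4 MZ1468 samples against the 2 MZ1484 samples. In 28 of the 56 mitosis and kinetochore genes the signal was above the bound in every MZ1468 sample and in neither MZ1484 sample, as in 3.88% of all genes. Of the 56 genes, 52 had a higher mean log2 signal in MZ1468 and 4 a lower one, where 50.4% of all genes were higher. The median log2 difference was 4.06, against 0.01 over all 18193 genes, and 28 genes differed by at least 4 on the log2 scale, as did 3.09% of all genes. In MZ1468-2, MZ1468-4, MZ1468-1 and MZ1468-3, 52, 50, 49 and 51 of the 56 genes were above the bound, against 14 in MZ1484-2 and 18 in MZ1484-1. Over all genes the shares above the bound were 48.4%, 52%, 54.7% and 60.4% in the MZ1468 samples in that order, against 41.5% in MZ1484-2 and 49.6% in MZ1484-1.

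**Figure D1:**
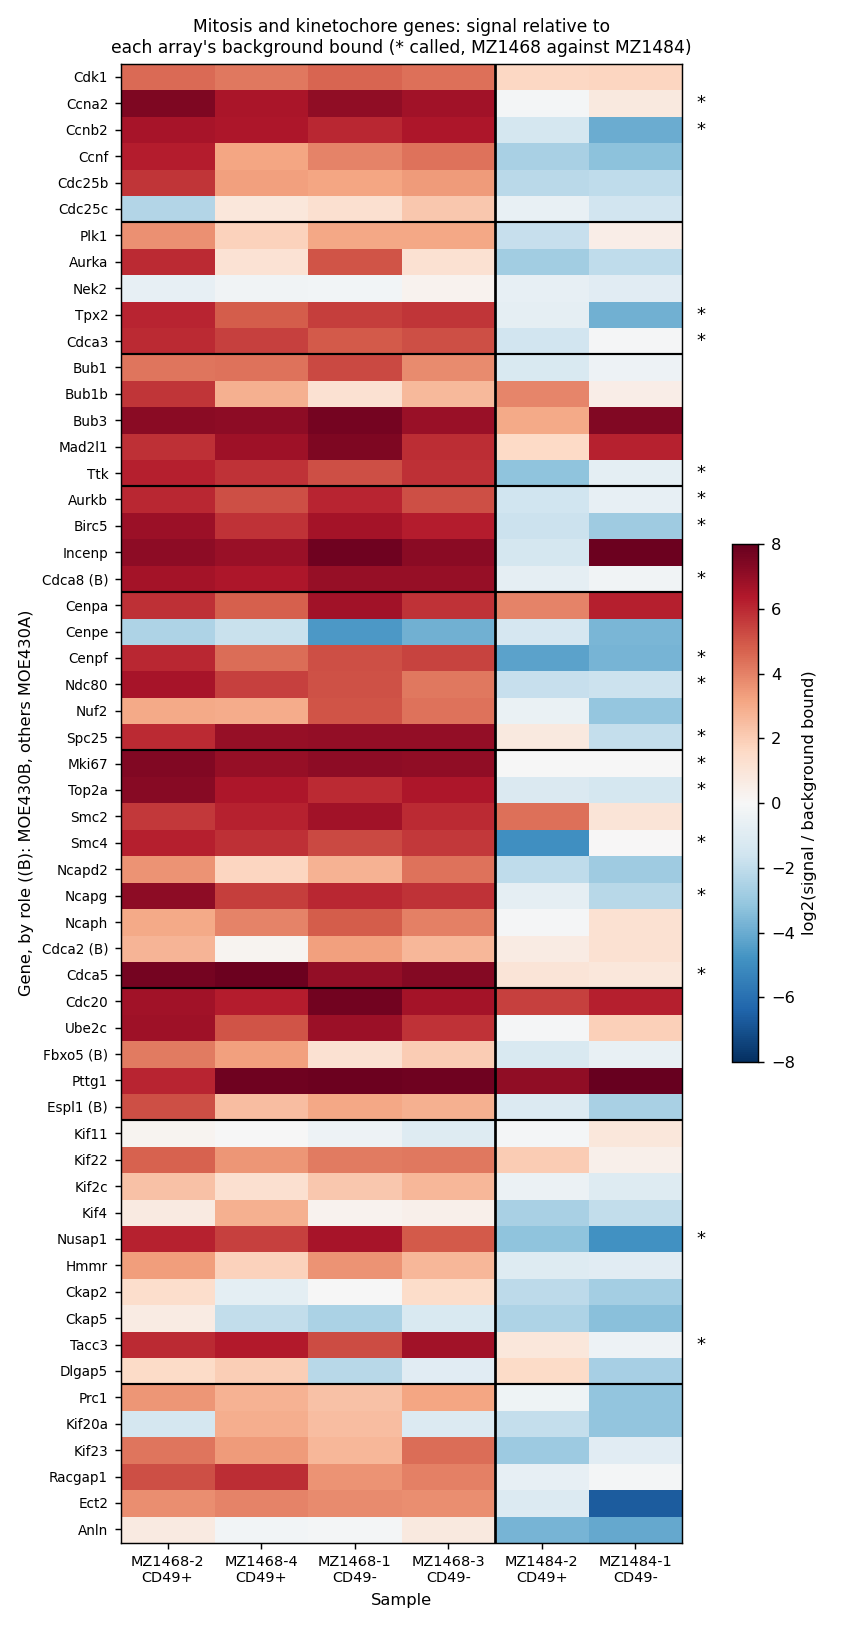
Log2 of signal over the array's background bound for 56 mitosis and kinetochore genes (rows, ordered by role, with lines between roles) in 6 samples (columns); red is above the bound, blue below it, and an asterisk marks a gene called in the comparison of MZ1468 with MZ1484. The MZ1468 columns are red for most rows, both MZ1484 columns are red at Cdk1, Bub1b, Bub3, Mad2l1, Cenpa, Smc2, Cdca2, Cdca5, Cdc20, Pttg1 and Kif22, and 1 of them at 10 further genes, Incenp among them.

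With limma on log2(signal + pseudocount), the CD49 group as a term and Benjamini-Hochberg adjustment over all probe sets of a design, 18 members passed an adjusted p of 0.05 as higher in MZ1468 and 0 as lower (32.1% of the 56). The background was 1.35% of all genes called, 1.16% higher and 0.192% lower. At an unadjusted p under 0.05, 40 members were higher and 0 lower, against 11.1% and 6.93% of all genes. In 41 members all 4 MZ1468 signals lay above both MZ1484 signals (14.7% of all genes), and in 2 members, Pttg1 and Kif11, all 4 lay below (13.8%). The log2 differences of the 18 called members ran between 5.05 and 7.23, with standard errors (SE) of 0.46 to 0.89. The call needed all 4 MZ1468 samples: without any one of them, 0 members passed, with 35 to 43 at an unadjusted p under 0.05 and median log2 differences of 3.38 to 4.18. Without MZ1484-2, 11 members passed, and 8 passed with a pseudocount 4 times as large. The probe sets called in the other settings are counted in the closing section. Within CD49+ samples alone, 49 of 56 members were higher in MZ1468 (median 4.15), and within CD49- samples alone 50 were (median 3.91). Each of these within-group sets holds a single MZ1484 sample, so that only directions and sizes are given.

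**Figure D2:**
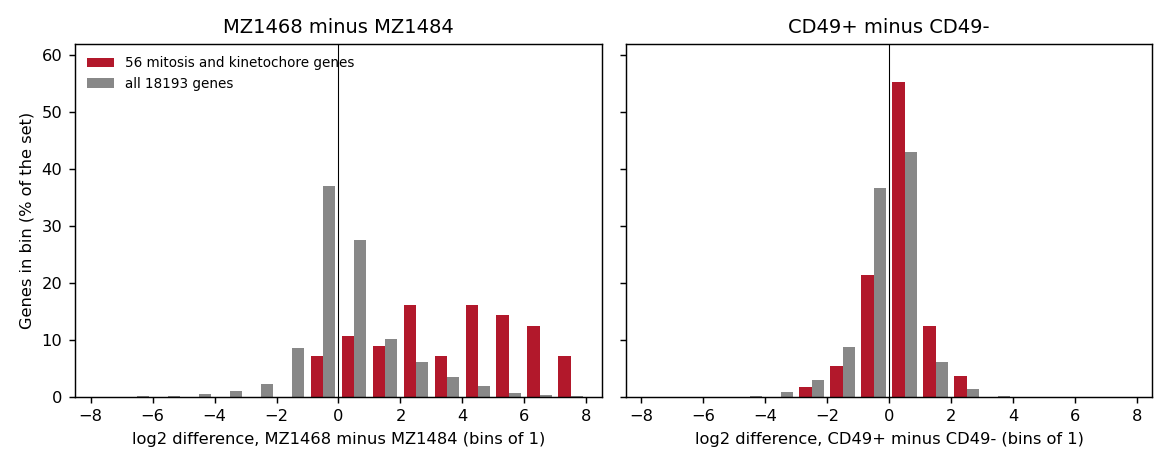
Share of genes (vertical axis, % of the set) in bins of 1 log2 unit (horizontal axis) for the 56 mitosis and kinetochore genes (red) and all 18193 genes (grey), for MZ1468 minus MZ1484 (left) and CD49+ minus CD49- (right). On the left the red bars lie mostly above 2, with a median of 4.06 against 0.01 for all genes, while on the right the medians are 0.32 and 0.01.

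Among the cyclins, Cdk1 and its activators, 2 of 6 measured genes were called and all 6 had a positive difference. Ccnb2 (1450920_at), the B-type cyclin that partners Cdk1, had signals of 9511, 7425, 5009 and 7285 in MZ1468-2, MZ1468-4, MZ1468-1 and MZ1468-3, against 57.0 and 6.05 in MZ1484-2 and MZ1484-1. Both MZ1484 signals were under the bound, and the groups lay at least 59.6-fold apart (log2 difference 7.08 ± 0.69 SE, limma adjusted p = 0.0248). Ccna2 (1417911_at), the A-type cyclin of S and G2 phase, had 17564, 7730, 10566 and 8794 in the MZ1468 samples in the same order, against 132 and 164 in MZ1484-2 and MZ1484-1. A further Ccna2 probe set also passed (log2 difference 6.44). Cdk1 (1448314_at), the kinase that drives entry into mitosis, stood apart from its cyclins in being above the bound everywhere. It had 2368, 1534, 1965 and 1734 in the MZ1468 samples, against 474 and 317 in MZ1484-2 and MZ1484-1, with no overlap (log2 difference 2.20 ± 0.71 SE, limma adjusted p = 0.184). Ccnf, the cyclin subunit of a ubiquitin ligase, differed by 5.43 (limma adjusted p = 0.0709) and Cdc25b, a phosphatase that activates Cdk1, by 4.56 (0.0800). Cdc25c, a related phosphatase, was dim on MOE430A (20.02, 155, 192 and 372 in the MZ1468 samples, against 100.0 and 33.1 in MZ1484-2 and MZ1484-1), but its MOE430B probe set gave 5852 to 14773 in MZ1468 samples and 156 to 188 in MZ1484 samples and passed (limma adjusted p = 0.042).

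Among the mitotic kinases and their activators, 2 of 5 were called and all 5 had a positive difference. Plk1 (1448191_at), the polo-like kinase of mitotic entry and spindle assembly, had 1260, 297, 679 and 689 in the MZ1468 samples, against 41.2 and 141 in MZ1484-2 and MZ1484-1. The groups did not overlap, but the difference of 2.66 ± 0.89 SE missed the threshold (limma adjusted p = 0.197). Tpx2 (1428104_at), which activates Aurora A on the spindle, had 6793, 2439, 3538 and 4221 in MZ1468 and 89.6 and 6.83 in MZ1484, at least 33.2-fold apart (limma adjusted p = 0.0402). Cdca3 (1452040_a_at), a trigger of mitotic entry, had 6271, 3798, 2373 and 2966 in MZ1468 samples, against 51.0 and 90.2 in MZ1484 samples. Aurka, the Aurora A kinase itself, varied within MZ1468, with 6222 and 2561 in MZ1468-2 and MZ1468-1 but 191 and 192 in MZ1468-4 and MZ1468-3, against 21.8 and 23.2 in MZ1484. Nek2, a centrosome kinase, was above the bound in 1 sample only, MZ1468-3.

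In the chromosomal passenger complex, 3 of 4 genes were called, the highest share of any role. Cdca8 (1436847_s_at), which encodes borealin, was measured on MOE430B and had 149704, 118398, 142043 and 106074 in MZ1468, against 724 and 706 in MZ1484-2 and MZ1484-1. Its log2 difference of 7.23 ± 0.55 SE was the largest among the members, at least 127-fold (limma adjusted p = 0.0229), and its other probe sets ran the same way. Birc5 (1424278_a_at) had 11333, 4595, 7888 and 6273 in MZ1468 samples, against 46.0 and 13.5 in MZ1484 samples, at least 59.6-fold apart. Aurkb (1451246_s_at), the kinase of the complex, had 6450, 3032, 5227 and 2866 in MZ1468 samples, against 48.7 and 60.3 in MZ1484 samples, at least 34.6-fold apart (limma adjusted p = 0.0364). Incenp, the scaffold that the other 3 bind, was the exception, with a signal in MZ1484-1 as bright as in MZ1468, and is described with the CD49 results.

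In the spindle assembly checkpoint 1 of 5 genes was called, and all 5 had a positive difference. Ttk (1449171_at), the kinase that starts checkpoint signalling, had 7392, 4550, 2836 and 4767 in MZ1468 samples, against 15.8 and 54.9 in MZ1484 samples, at least 38.6-fold apart (limma adjusted p = 0.0332). Bub1, a kinetochore kinase, had 1120 to 3028 in MZ1468 samples, against 62.6 to 72.4 in MZ1484 samples (log2 difference 4.31 ± 0.81 SE, limma adjusted p = 0.0609). Bub3, Mad2l1 and Bub1b, which make up the checkpoint's inhibitor of Cdc20, were above the bound in all 6 samples and missed the threshold. Bub3 had 14930, 11751, 15534 and 9854 in MZ1468 samples, against 1199 and 16105 in MZ1484-2 and MZ1484-1, so that 1 MZ1484 sample was the brightest of all and the other the dimmest. A further Bub3 probe set, above the bound on 5 arrays, did not show this order. It had 752, 32.9, 710 and 7928 in MZ1468 samples, against 766 and 3290 in MZ1484-2 and MZ1484-1 (log2 difference -1.17). Mad2l1 had 4884 to 13532 in MZ1468 samples, against 446 in MZ1484-2 and 6844 in MZ1484-1.

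At the centromere and outer kinetochore, 3 of 6 genes were called. Ndc80 (1417445_at), the microtubule-binding subunit, had 9755, 3693, 2685 and 1527 in MZ1468 samples, against 40.6 and 29.5 in MZ1484 samples. Spc25 (1424118_a_at), from the same complex, had 6364, 10638, 10023 and 10833 in MZ1468 samples, against 260 in MZ1484-2, above the bound, and 25.9 in MZ1484-1, under it. Nuf2, another subunit of it, had 667 to 2516 in MZ1468 samples, against 11.1 to 101 in MZ1484 samples, and missed the threshold (log2 difference 4.19 ± 0.98 SE, limma adjusted p = 0.0937). Cenpf (1427161_at), a large outer kinetochore protein, had 6619, 1894, 2745 and 3519 in MZ1468 samples, against 7.72 and 7.43 in MZ1484 samples, at least 27.8-fold apart (limma adjusted p = 0.0334). Cenpa, unlike these, was bright throughout, with 5745, 2319, 8310 and 4458 in MZ1468 samples and 2369 and 7237 in MZ1484-2 and MZ1484-1 (log2 difference 0.19 ± 0.59 SE). Cenpe, a kinetochore motor, was at or under the bound on all 6 MOE430A arrays, but its MOE430B probe set gave 2129 to 6747 in MZ1468 samples, against 232 to 424 in MZ1484 samples, without passing (limma adjusted p = 0.163).

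Chromosome structure and cohesion had 5 of 9 genes called, and all 9 had a positive difference. Mki67 (1426817_at), which encodes the Ki-67 protein that coats mitotic chromosomes and marks cycling cells, had 17293, 10529, 11003 and 11042 in MZ1468 samples, against 144 and 95.2 in MZ1484-2 and MZ1484-1. Both MZ1484 signals lay just under the bound, at least 102-fold below MZ1468 (log2 difference 6.40 ± 0.55 SE, limma adjusted p = 0.0248). Top2a (1454694_a_at), the topoisomerase that untangles sister chromatids, had 15443, 7307, 4824 and 7173 in MZ1468 samples, against 66.7 and 35.5 in MZ1484 samples, at least 66.2-fold apart (limma adjusted p = 0.0248). Its other probe sets were at or under the bound on every array.

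Cdca5 (1416802_a_at), which encodes sororin, a protector of cohesion, had 20490, 18898, 10292 and 13329 in MZ1468 samples, against 309 and 181 in MZ1484 samples, above the bound in all 6. The condensin subunits parted. Smc4 (1452197_at) had 7476, 4921, 3055 and 4170 in MZ1468 samples, against 4.91 and 98.5 in MZ1484-2 and MZ1484-1. Ncapg (1429171_a_at) had 14392, 3894, 5101 and 4574 in MZ1468 samples, against 90.2 and 20.7 in MZ1484 samples. Both were called. Smc2, the partner of Smc4, had 5066, 5884, 8061 and 5138 in MZ1468 samples, against 3096 in MZ1484-2 and 196 in MZ1484-1 (log2 difference 2.84 ± 0.96 SE, limma adjusted p = 0.200). Ncapd2 and Ncaph, regulatory subunits, differed by 3.93 and 2.73 and missed the threshold, as did Cdca2, a phosphatase-targeting protein of chromosomes, with 1.45.

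None of the 5 genes of the anaphase-promoting complex and separase group was called by limma, and 3 were at an unadjusted p under 0.05. Ube2c, the ubiquitin-conjugating enzyme of the complex, had 11107, 2758, 8865 and 4567 in MZ1468 samples, against 137 in MZ1484-2 and 360 in MZ1484-1 (log2 difference 4.57 ± 0.82 SE, limma adjusted p = 0.0574). Espl1, which encodes separase, had 6196 to 53231 in MZ1468 samples and 137 to 568 in MZ1484 samples (log2 difference 4.83 ± 0.87 SE, limma adjusted p = 0.110). Fbxo5, an inhibitor of the complex, had 2656 to 26597 in MZ1468 samples, against 524 to 550 in MZ1484 samples. The probe set used for Cdc20 was bright in every sample, with 10578, 6565, 16193 and 8287 in MZ1468 samples and 6649 and 7120 in MZ1484-2 and MZ1484-1 (log2 difference 0.51 ± 0.42 SE). Its 2 other probe sets, also above the bound on all 6 arrays, had larger log2 differences of 1.78 and 1.23. The brighter of them had 3777 to 10223 in MZ1468 samples, against 520 in MZ1484-2 and 5605 in MZ1484-1. The dimmer had 1455 to 3827 in MZ1468 samples, against 1180 and 711 in MZ1484-2 and MZ1484-1, with no overlap. Pttg1, securin, ran the other way, with 6732, 18495, 18172 and 18394 in MZ1468 samples and 20220 and 31037 in MZ1484 samples (log2 difference -0.81 ± 0.40 SE, limma adjusted p = 0.352). All 4 MZ1468 signals of Pttg1 lay below both MZ1484 signals.

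**Figure D3:**
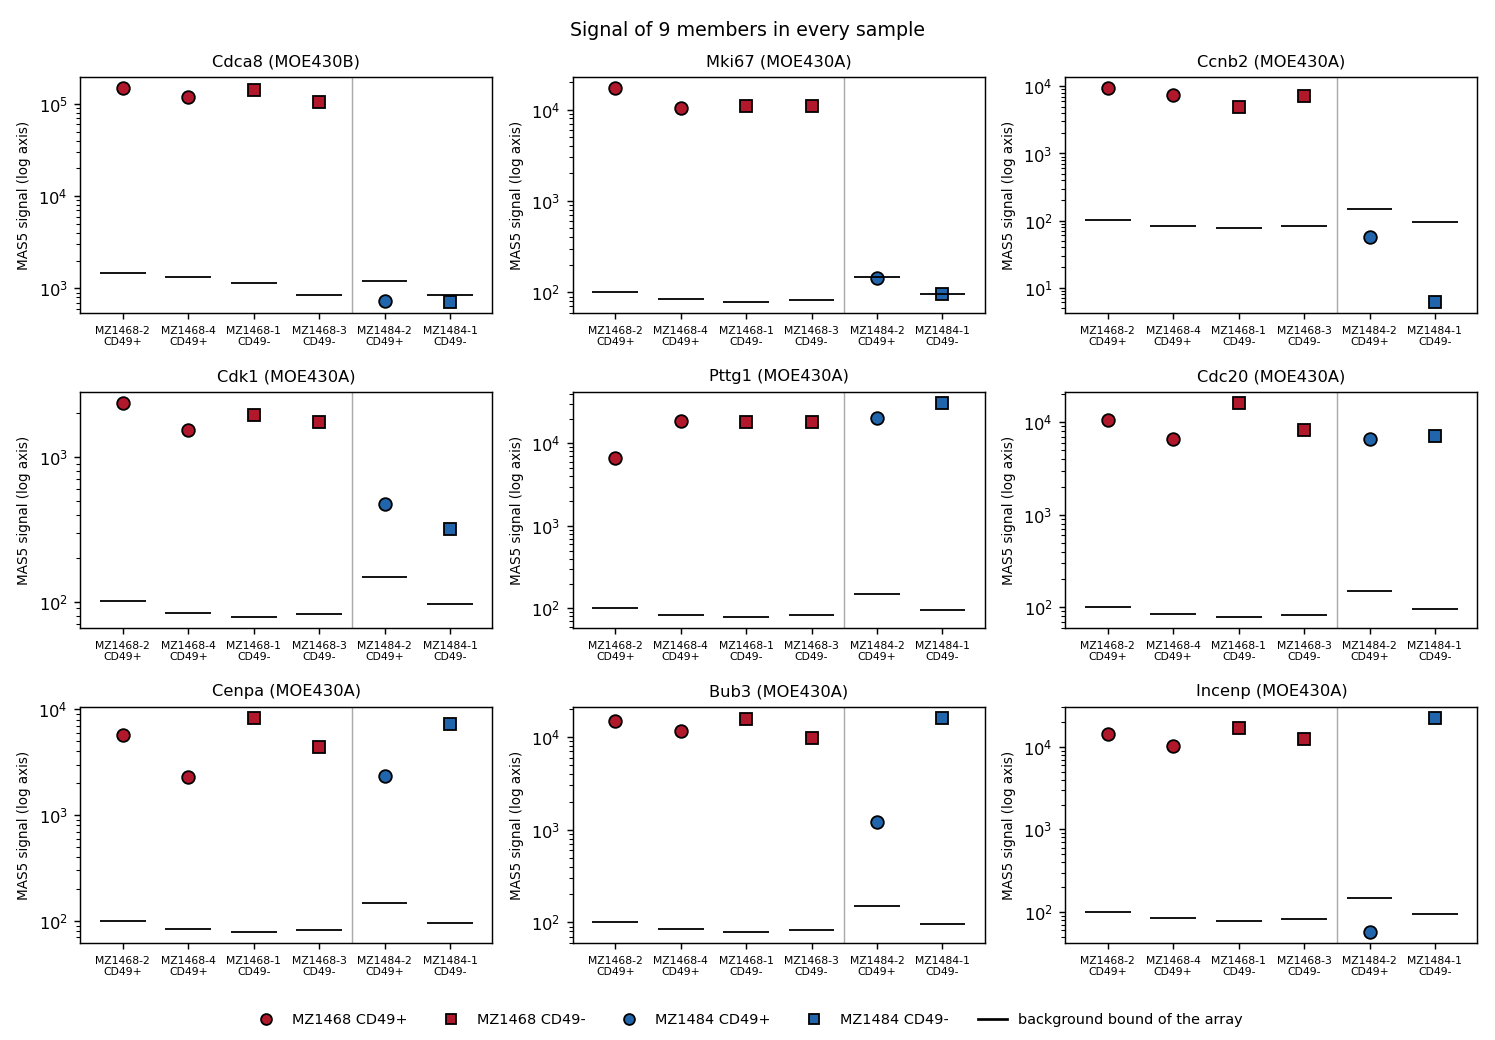
MAS5 signal (vertical log axis) of 9 members in the 6 samples, with the MZ1468 samples (red) left of the MZ1484 samples (blue), circles for CD49+, squares for CD49-, and a short line at each array's background bound. Cdca8, Mki67 and Ccnb2 are far above the bound in MZ1468 and under it in MZ1484, and Cdk1 is above it in all 6 samples. Pttg1 is lower in every MZ1468 sample than in both MZ1484 samples. In the probe sets shown, Cdc20 and Cenpa overlap between submissions, and Bub3 and Incenp are low in MZ1484-2 only.

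Among the spindle motors and microtubule proteins, 2 of 10 were called. Nusap1 (1416309_at), a spindle microtubule protein, had 7205, 3708, 7504 and 2492 in MZ1468 samples, against 16.2 and 3.35 in MZ1484 samples, at least 39.6-fold apart (limma adjusted p = 0.0290). Tacc3 (1417450_a_at), which strengthens kinetochore fibres, had 6322, 6950, 2858 and 8674 in MZ1468 samples, against 280 in MZ1484-2 and 72.3 in MZ1484-1. The other 8 were not called. Kif22, a chromosome-arm motor, had 2641, 967, 1408 and 1511 in MZ1468 samples, against 606 and 125 in MZ1484-2 and MZ1484-1. Kif22, Kif2c, a microtubule depolymerase, Kif4, a chromosome motor, and Hmmr, a spindle protein, had differences of 2.32, 2.02, 2.04 and 2.87 with no overlap and limma adjusted p-values of 0.153 to 0.247. Kif11, the motor that separates spindle poles, stayed between 40.4 and 114 in MZ1468 samples, against 135 and 182 in MZ1484 samples (log2 difference -0.92 ± 0.54 SE). It was above the bound in 1 sample of each submission, and its other probe sets were above it nowhere. Ckap2, Ckap5 and Dlgap5, which bind spindle microtubules, were above the bound in 2, 1 and 2 of the 4 MZ1468 samples.

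None of the 6 genes of the central spindle and cytokinesis was called by limma, although all 6 had a positive difference, 5 were at an unadjusted p under 0.05, and none was above the bound in an MZ1484 sample. Ect2, the exchange factor that activates RhoA at the division plane, came closest, with 1344, 1327, 1094 and 1097 in MZ1468 samples, against 70.0 and 0.95 in MZ1484-2 and MZ1484-1 (log2 difference 4.57 ± 0.78 SE, limma adjusted p = 0.0534). Racgap1 and Kif23, the partners in the centralspindlin complex, differed by 4.27 ± 0.82 and 4.26 ± 0.92 SE (limma adjusted p = 0.0635 and 0.0786). Prc1, which bundles central spindle microtubules, differed by 3.23, and Anln, an actin-binding scaffold, by 1.91, with 69.9 to 165 in MZ1468 samples, near the bound, against 5.52 to 11.4 in MZ1484 samples. Kif20a, a motor, split the MZ1468 samples, with 637 and 426 in MZ1468-4 and MZ1468-1 but 37.4 and 37.7 in MZ1468-2 and MZ1468-3, against 39.0 and 10.7 in MZ1484-2 and MZ1484-1 (log2 difference 1.92).

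Agreement within genes was not complete. The 56 genes had 74 further probe sets, of which 40 were above the bound on at least 1 array. Of these 40, 32 had a submission difference of the same sign as the probe set used, and 8 had the opposite sign. This count favours the same sign, because a probe set could pass the bound through the MZ1468 arrays alone, where most members were brighter. The same count was not made over all genes. The 8 belonged to Bub3, Incenp, Cenpa, Cenpe, Spc25, Tacc3, Dlgap5 and Anln, and for Spc25 and Tacc3, both called, the opposing probe sets had log2 differences of -0.58 and -0.03. Of all 130 probe sets, 35 were above the bound on no array.

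Genes outside the 56 that act in the same process or in DNA replication were described from lists of other genes, beside the same background of 1.16% called higher and 0.192% called lower. Of 125 other measured mitosis genes, 101 had a positive difference, 11 were called higher and 0 lower (3 at an unadjusted p under 0.05 as lower), and the median was 1.88. Cdkn3, a phosphatase that acts on Cdk proteins, had 29209 to 103016 in MZ1468 samples, against 43.4 to 66.4 in MZ1484 samples. The centromere proteins Cenpi and Cenpk and the kinetochore protein Zwint were also called, with log2 differences of 5.98, 6.81 and 5.60. The 4 other mitosis genes with the smallest p among those lower in MZ1468 were Stag1, a cohesin subunit (2179 to 3238 in MZ1468 samples, against 11437 to 15531 in MZ1484 samples, limma adjusted p = 0.0596), Cdc26, Mis18a and Ccnb1ip1, the last under the bound in all samples.

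Of 23 genes of replication licensing and the MCM helicase, 22 had a positive difference and 5 were called (Mcm5, Orc3, Gins1, Gmnn and Dbf4), with a median of 3.76. Of 30 genes of DNA synthesis and the replication fork, 26 had a positive difference and 4 were called (Tk1, Lig1, Uhrf1 and Rfc2), with a median of 1.22. Of 21 G1 cyclins, kinases and Rb-E2F genes, 16 had a positive difference with a median of 0.72, and limma called 0, with 6 higher and 3 lower at an unadjusted p under 0.05.

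**Figure D4:**
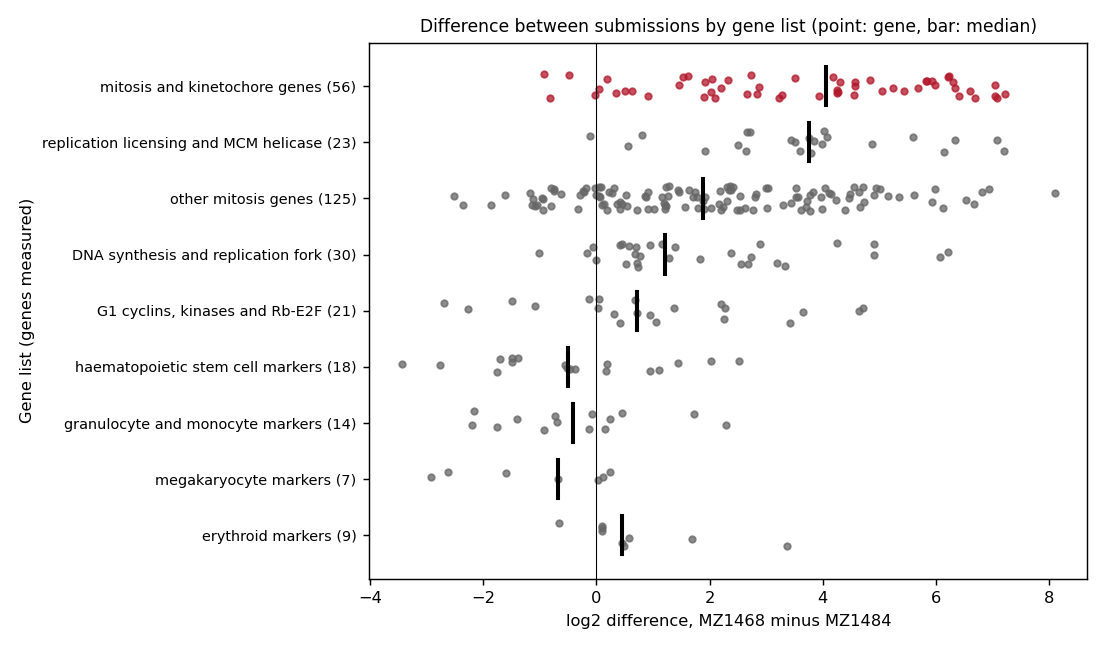
Log2 difference MZ1468 minus MZ1484 (horizontal axis) of each gene (point) in 9 gene lists (rows, with the number of genes measured), with a bar at the list's median; vertical scatter within a row has no meaning. The medians are 4.06 for the mitosis and kinetochore genes, 3.76 for replication licensing, 1.88 for other mitosis genes and -0.50 for stem cell markers.

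Markers of stem cells and of other cells also differed between the submissions, and their part in the differences above was not tested. The stem cell markers had a median difference of -0.50, with 7 of 18 higher and 11 lower in MZ1468, 0 called by limma and 4 lower at an unadjusted p under 0.05. Granulocyte and monocyte markers summed to 8211 to 18108 on MOE430A in MZ1468 samples, against 36744 to 52328 in MZ1484 samples, with 9 of 14 lower in MZ1468. Lyz2 had 2750 to 9975 in MZ1468 samples, against 19728 to 31875 in MZ1484 samples, while the granule genes Ngp, Ltf and Camp were under the bound in all 6 samples. Megakaryocyte markers summed to 1249 to 4925 in MZ1468 samples, against 7954 to 11464 in MZ1484 samples. Of the 7 markers 3 were higher and 4 lower in MZ1468, with 0 called by limma and 0 at an unadjusted p under 0.05. Pf4, the largest part of the sum in both MZ1484 samples, was at 36.0 to 2985 in MZ1468 samples and 5929 to 7419 in MZ1484 samples. Erythroid markers summed to 14191 to 24283 in MZ1468 samples, against 7675 to 14709 in MZ1484 samples, with Alas2, Car1, Gata1 and Hba-a1 under the bound in every sample. In direction they ran with the mitosis genes, with 8 of 9 higher in MZ1468 and a median difference of 0.45, and 1 was at an unadjusted p under 0.05.

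For the remaining markers, as for the erythroid ones, the sums overlapped between submissions, and the counts of genes by direction are given beside them. B cell markers summed to 1807 to 8733 in MZ1468 samples, against 1257 to 2765 in MZ1484 samples, with 7 of 8 genes lower in MZ1468, and Pax5, Ms4a1 and Vpreb1 were above the bound in no sample. T and NK cell markers summed to 1631 to 4847 in MZ1468 samples, against 636 to 9953 in MZ1484 samples, with 6 of 8 lower in MZ1468 and Cd3e, Ncr1 and Il2rb above the bound in no sample. Mast cell and basophil markers summed to 101 to 9711 in MZ1468 samples, where Mcpt8 in MZ1468-1 had 9531, against 211 to 294 in MZ1484 samples, with 3 of 5 higher in MZ1468. Stromal and endothelial markers summed to 503 to 3697 in MZ1468 samples, against 1101 to 3268 in MZ1484 samples, with 7 of 10 lower in MZ1468 and 4 wholly below (13.8% of all genes). In none of these 7 lists of other cells was a gene called by limma, with 2 genes higher and 5 lower in MZ1468 at an unadjusted p under 0.05.

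Within MZ1468, 1 sample led the others in most of these genes. MZ1468-2 had the highest signal of the 4 MZ1468 samples in 30 of the 47 members that were above the bound in all 4. MZ1468-1 led in 11, MZ1468-4 in 3 and MZ1468-3 in 3. How often each sample led over all genes was not counted. The summed MOE430A signal of the members was 297260 in MZ1468-2, 192703 in MZ1468-4, 225334 in MZ1468-1 and 192558 in MZ1468-3, against 41030 in MZ1484-2 and 93909 in MZ1484-1. MZ1468-2 also had the lowest Gapdh 3′ to 5′ ratio on MOE430A, 13.9, against 108 to 1146 in the other MZ1468 samples and 95.7 to 1076 in the MZ1484 samples. Its Actb ratio of 8.83 on MOE430A compared with 9.87 to 19.8 in the other MZ1468 samples and 2.63 to 7.48 in the MZ1484 samples, and on MOE430B its 11.4 lay within the 6.52 to 14.7 of the other MZ1468 samples. Of the stem cell markers, Procr at 57.1 and Tek at 44.0 were under the bound in MZ1468-2, against 1122 to 4023 for Procr and 625 to 981 for Tek in the other MZ1468 samples. Whether transcript length after amplification or cell composition bears on the order of the 4 samples was not tested.

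The second comparison, CD49+ against CD49-, is the one that the sample labels name. No mitosis or kinetochore gene passed the test between the CD49 groups. With the submission as a term, limma called 0 of 56 members and 0 of all genes (smallest adjusted p 0.892 on MOE430B and 0.898 on MOE430A). At an unadjusted p under 0.05, 3 members were higher in CD49+ samples and 0 lower, against 1.56% and 2.85% of all genes. Of the 56 members, 40 had a higher mean in CD49+ samples and 16 a lower one, and the median log2 difference was 0.32, against 0.01 over all genes. Without MZ1468-2 the median was 0.05, and without each of the other 5 samples it was 0.22 to 0.49, while in the MZ1484 pair alone it was 0.41. In 3 members (Bub1b, Dlgap5 and Cenpe) all CD49+ signals lay above all CD49- signals, a share of the 56 near the 4.13% of all genes. In 0 members did all CD49+ signals lie below (3.83% of all genes).

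Bub1b, the checkpoint kinase-like protein that holds Cdc20 inactive, had 5227, 614 and 2227 in MZ1468-2, MZ1468-4 and MZ1484-2 (CD49+), against 178, 499 and 140 in MZ1468-1, MZ1468-3 and MZ1484-1 (CD49-). All 6 signals were above the bound (log2 difference 2.91 ± 1.05 SE, limma adjusted p = 0.898). Its 2 probe sets on MOE430B also had positive differences, of 2.94 and 1.91. Dlgap5, a spindle protein that stabilises kinetochore fibres, had 290, 331 and 427 in CD49+ samples, against 16.6, 43.7 and 15.1 in CD49- samples, all 3 of them under the bound. The groups lay at least 4.06-fold apart, with no overlap (log2 difference 2.88 ± 0.54 SE, limma adjusted p = 0.898). On MOE430B the Dlgap5 signals overlapped, with 214, 7937 and 284 in CD49+ samples and 85.5, 1082 and 66.4 in CD49- samples. Cenpe had 17.9, 24.1 and 58.1 in CD49+ samples, against 3.29, 5.61 and 7.57 in CD49- samples, all under the bound, and its brighter MOE430B probe set had a difference of -0.26.

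The members with the smallest p in the other roles overlapped between the groups. Fbxo5 had 26597, 12730 and 524 in CD49+ samples, against 2656, 3506 and 550 in CD49- samples (log2 difference 1.67 ± 0.73 SE, limma adjusted p = 0.892). Racgap1 had 3566, 5121 and 94.4 in CD49+ samples, against 954, 1358 and 84.6 in CD49- samples. Cdca5 had 20490, 18898 and 309 in CD49+ samples, against 10292, 13329 and 181 in CD49- samples. In these 3 genes the log2 difference between submissions (3.51, 4.27 and 5.85) was larger than that between CD49 groups (1.67, 1.30 and 0.73). Ccnb2 and Tpx2 had differences of 0.76 ± 0.65 and 0.65 ± 0.81 SE. Mki67, the usual marker of cycling cells, differed by 0.36, with 17293, 10529 and 144 in CD49+ samples and 11003, 11042 and 95.2 in CD49- samples.

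Within MZ1468, with 2 samples a group, 37 of 56 members were higher in CD49+ (median log2 difference 0.22). Within MZ1484, with 1 sample a group and no test, 36 were (median 0.41). In 27 members the difference was positive in both submissions, in 10 it was negative in both, and in 19 the signs were opposite. Other mitosis genes had a median CD49 difference of 0.03 over 125 genes, with 0 called by limma and 2 higher and 1 lower at an unadjusted p under 0.05. The 4 with the smallest p among those higher in CD49+ were Cep192, a centrosome protein (log2 difference 2.23), Pds5b, a cohesin regulator (1.85), Cdc16, an anaphase-promoting complex subunit (1.37), and Esco2, a cohesin acetyltransferase (1.27). Among those lower they were Parpbp (-4.27), Oip5 (-1.54), Arhgef39 (-2.30) and Anapc7 (-1.35). Replication licensing, DNA synthesis and G1 lists had medians of 0.01, 0.27 and 0.31, with 0 called in each and 0, 1 and 1 genes at an unadjusted p under 0.05.

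In the marker lists limma called 0 genes between the CD49 groups, with 1 higher and 4 lower in CD49+ at an unadjusted p under 0.05, and the lists' medians ran between -0.18 (mast cells and basophils) and 0.49 (stem cell markers). Of the 18 stem cell markers 10 were higher and 8 lower in CD49+ samples, with 1 wholly above and 2 wholly below, where 4.13% and 3.83% of all genes were. The 2 wholly below were Fgd5 and Slamf1, and all CD49+ signals of both were under the bound. Fgd5 had 91.4, 213 and 179 in CD49+ samples, against 3459, 7293 and 9409 in CD49- samples, and Slamf1 had 7.52, 60.0 and 29.7 in CD49+ samples, against 264, 524 and 3011 in CD49- samples. Both were chosen after their values were seen, and neither was called.

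The last comparison asked whether the CD49 difference itself differed between the submissions. With 1 MZ1484 sample in each CD49 group, its SE and p-values come from the spread between MZ1468 samples, as moderated by limma. They hold no spread between MZ1484 samples. Incenp was the only member of 56 called in this interaction, as were 0.11% of all genes. Its probe set 1439436_x_at had 14284, 10265, 16912 and 12369 in MZ1468-2, MZ1468-4, MZ1468-1 and MZ1468-3, against 57.0 in MZ1484-2 and 22344 in MZ1484-1. The CD49+ sample of MZ1484 was thus under the bound and the CD49- sample of MZ1484 was the brightest of the 6. The CD49 difference was -0.26 within MZ1468 and -8.06 within MZ1484, and MZ1468 minus MZ1484 was 7.80 ± 0.63 SE (limma adjusted p = 0.0483). The call did not hold without MZ1468-2, MZ1468-1 or MZ1468-3 (limma adjusted p = 0.0657, 0.418 and 0.473, with sizes of 7.56 to 8.03), or with quantile normalization, the larger pseudocount or no variance trend (0.0604 to 0.124). A second MOE430A probe set ran the same way, with 121 in MZ1484-2 and 10358 in MZ1484-1, while both MOE430B probe sets were under the bound in MZ1468.

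At an unadjusted p under 0.05, 5 members differed in this way, a share of the 56 below the background of 14.2% of all genes. The others were Bub3 (3.82 ± 0.58 SE), Mad2l1 (3.68 ± 1.06 SE), Smc2 (-4.05 ± 0.83 SE) and Spc25 (-2.78 ± 0.95 SE), with limma adjusted p-values of 0.0897 to 0.291. In the probe sets used for Bub3 and Mad2l1, as for Incenp, the MZ1484 CD49+ sample was the dim one. For Smc2 and Spc25 it was the MZ1484 CD49- sample. The further Bub3 probe set above the bound had an interaction of the opposite sign (-1.42 ± 2.95 SE). Its dimmest sample was MZ1468-4, under the bound at 32.9. MZ1484 had 1 sample in each CD49 group, so that a difference between these CD49 groups and a difference between these particular samples cannot be told apart.

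**Figure D5:**
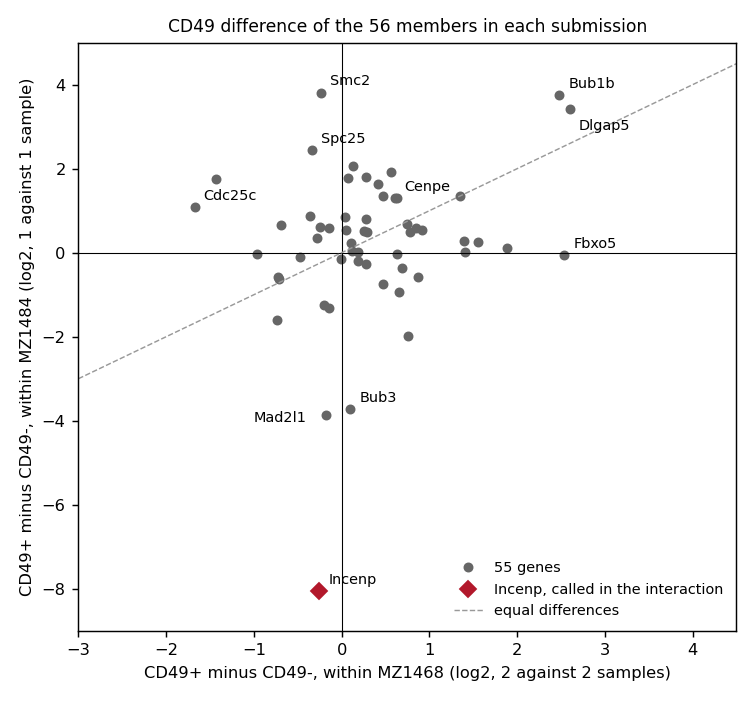
CD49+ minus CD49- log2 difference of the 56 members within MZ1468 (horizontal axis, 2 against 2 samples) and within MZ1484 (vertical axis, 1 against 1 sample); the red diamond is Incenp and the dashed line marks equal differences. Incenp lies at -0.26 and -8.06, Bub3 and Mad2l1 lie below the other grey points, and Bub1b and Dlgap5 are positive in both submissions.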

How the data were processed

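Affymetrix MOE430A and MOE430B arrays measured amplified cDNA of 6 samples (12 arrays). The deposited values were linear MAS5 intensities, 1 signal per probe set, per the submitters' processing notes. No source used here gives its version or settings. The 2% trimmed mean was 1501 on every array, so the authors' scaling was kept. Array run records gave scan day, station and chip lot, and all matched the labels.

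Symbols came from the platform annotation. Probe sets with several symbols were not used. The pseudocount added to a signal before log2 was its design's 25th percentile (27.0 for MOE430A, 140.0 for MOE430B), which understates differences of dim genes. All non-control probe sets (22626 and 22511) were fitted with limma 3.58.1 in R 4.3.3 (lmFit, eBayes with a mean-variance trend), with terms for submission and CD49, and a second fit with their interaction. Benjamini-Hochberg adjustment ran within each design, at 0.05. SE is the moderated standard error. The method was tested on simulated data. An "at least" fold sets the brighter group's mean log2 signal against the mean of the higher of bound and signal in a group under the bound on all its arrays.

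The members, gene lists and tests were chosen with earlier results of these data known. Signals in every sample are given for Mki67, Top2a, Cdk1, Plk1, Aurkb, every called member and, per role, the member with the smallest p in each comparison, and from the other mitosis genes the 4 with the smallest p per direction are named. Aurka, Bub3, Mad2l1, Cenpa, Smc2, Cdc20, Pttg1, Fgd5 and other named exceptions were chosen after their values were seen. Alternatives were the term, pseudocount, filter, scaling, variance trend, probe set, design and each sample left out. Scan day is the same split as submission and was not a separate block.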

Additional observations from a re-analysis of the deposited data

Results flagged for a closer look

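In 4 of the 56 members (7.14%) 1 of the 4 MZ1468 samples stood apart from the other 3 by Dixon's test, and chance gives about 1 in 20. The sample was MZ1468-2 each time. It was the highest for Mki67, at 17293 against 10529 to 11042 in the other MZ1468 samples, and for Cdc25b, at 5226 against 687 to 881. It was the lowest for Spc25, at 6364 against 10023 to 10833, and for Pttg1, at 6732 against 18172 to 18495.

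The CD49 difference of Incenp differed between submissions by the test of the interaction, with MZ1468 minus MZ1484 at 7.80 on the log2 scale. It rests on 1 CD49+ and 1 CD49- sample of MZ1484.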

How the results depend on the processing

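No paired analysis was possible because the labels give no replicate numbers shared between the CD49 groups, and the submission served as the term in its place. Leaving out 1 sample gave 0 to 19 members called between submissions, with medians of 3.38 to 4.18, and 0 to 855 called probe sets, against 18 members and 369 probe sets with all samples. For the interaction these ranges were 0 to 1 members and 0 to 303 probe sets, against 1 and 31. Between submissions, 8 members were called with the 4-fold pseudocount (median 3.00, 133 probe sets), and the medians were 2.70 with MOE430B preferred and 2.61 over all probe sets of a gene. Other settings gave 22 members with a pseudocount of 1 (670 probe sets), 25 with the median filter (884), 23 without the CD49 term (894), 23 without the variance trend (847), 12 with quantile normalization (226), 0 within CD49+ (0) and 22 within CD49- (1096). In the interaction, the called members and probe sets were 0 and 0 with the 4-fold pseudocount, quantile normalization or no trend, 2 and 245 with the median filter, 1 and 49 with median centring, 1 and 92 with a pseudocount of 1, and 0 members with MOE430B preferred. With MOE430B preferred, the submission difference had the opposite sign for Anln (-0.28), Aurka (-0.26), Smc2 (-0.25), Top2a (-0.88) and Ttk (-0.12), whose MOE430B probe sets were above the bound on no array except 1 for Anln, and the CD49 difference for Cenpe (-0.26). The median over probe sets turned Kif23 to -0.14, and the Bub3 interaction was -0.12 with MOE430B preferred and -0.46 over its probe sets. The causes of these changes were not tested. Between CD49 groups, 0 members were called by limma under every alternative, with 1 to 6 at an unadjusted p under 0.05. Median centring moved the median of all MOE430A probe sets to -0.29 between submissions and 0.13 between CD49 groups, with 18 members called. The precision is limited by 6 samples, 2 of them MZ1484.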
